A study of Mus musculus with 8 samples.

Results

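The 5 mouse casein genes, Csn1s1, Csn2, Csn1s2a, Csn1s2b and Csn3, encode the main proteins of milk and lie close together on chromosome 5. They were followed here in cells that carried the leukaemia fusion NUP98-HOXA9 or shortened forms of it. The members are the probe sets whose only gene symbol in the platform's annotation was a casein gene. Each gene had 1 probe set, so the cluster makes up 5 of the 19938 genes that had a probe set of 1 symbol. The genes were chosen by the measured log2 difference between the full-length fusion and the empty vector, since Csn2 had the largest positive one of all probe sets in an earlier reading of these arrays. Values from that comparison are therefore given as a description, without p-values.

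Total RNA was measured on 8 arrays, all from the mouse strain C57BL/6 and all in cells carrying an introduced vector. The 4 groups were the empty vector, full-length NUP98-HOXA9, NUP98-HOXA9 delFG1 and NUP98-HOXA9 delFG2, with 2 arrays each, numbered 1 and 2. NUP98-HOXA9 joins the phenylalanine-glycine (FG) repeats of the nucleoporin NUP98 to the DNA-binding homeodomain of HOXA9, and the design asked which genes depend on the NUP98 portion. The residues removed in each deletion mutant, the cell type, the promoter that drives the vector and the age of the animals were not given in the sources used here. Nor was it stated whether arrays 1 and 2 came from separate cultures or animals, so the p-values below cover the array-to-array spread alone, which may be technical.

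The arrays matched cells of blood and not of mammary gland. All 10 general blood cell markers lay above the median probe set, with a summed intensity of 40981 to 43672 in the empty vector, 35275 to 39786 in the full length, 36295 to 39537 in delFG1 and 37428 to 41426 in delFG2. So did 7 of 8 myeloid progenitor markers, which include the granule gene Mpo and the stem cell factor receptor Kit, with sums of 34799 to 38512, 41460 to 41548, 41211 to 43097 and 37699 to 41909 in the same order. With the array number as a block in the fit, the markers were also compared with the empty vector. In the full length, 2 progenitor markers were called higher and 4 general blood markers lower, where 2.18% and 4.43% of all probe sets were. In delFG1 the counts were 4 and 3, where 1.94% and 4.18% of all probe sets were. In delFG2 they were 0 and 0, where 0.106% and 0.399% were. With so few probe sets called in delFG2, these counts do not show that the markers were unchanged there. The part of these markers in the casein results was not tested. The 16 measured epithelial markers summed to 1325 to 1852 per array, and 3 of them lay above the median. That sum was 1737 to 1852 in the empty vector, 1428 to 1570 in the full length, 1325 to 1545 in delFG1 and 1528 to 1834 in delFG2, and the differences lay in 1 gene, Cdh1, which encodes E-cadherin. Cdh1 had intensities of 680 and 789 in the empty vector, 371 and 510 in the full length, 288 and 456 in delFG1 and 492 and 747 in delFG2. Without it the other 15 markers summed to 1036 to 1089 on every array. No T lymphoid marker of the 5 measured lay above the median, against 1 of 5 B lymphoid, 1 of 4 erythroid and 2 of 6 stromal markers. The median intensity of an array was 80.7 to 83.2, and the lowest intensity of any probe set in the table was 18.3.

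Caseins are secreted phosphoproteins that carry calcium phosphate in milk as micelles. Alpha-s1-casein (Csn1s1), beta-casein (Csn2) and the alpha-s2-like caseins (Csn1s2a and Csn1s2b) bind calcium, while kappa-casein (Csn3) covers the micelle and keeps it in solution. In the lactating gland, prolactin acts through its receptor and the kinase JAK2 on the transcription factor STAT5, which binds casein promoters together with the glucocorticoid receptor and C/EBP-beta. Blood cell cytokine receptors use the same JAK2 and STAT5, and the Csn2 promoter is widely used as a STAT5 reporter in blood cells.

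The promoters are shown because 3 neighbouring casein genes with different patterns across the groups each held a STAT motif close to the start. RefSeq sequence (mouse assembly GRCm38.p6) was at hand for Csn1s1, Csn2 and Csn1s2a, from 250 bases before the start of transcription to 50 bases after it. The stretches are chr5:87665958-87666257 on the plus strand for Csn1s1, chr5:87699376-87699675 on the minus strand for Csn2 and chr5:87774200-87774499 on the plus strand for Csn1s2a. They cover the proximal promoter and the first bases of the transcript, and each is written 5′ to 3′ along its gene. Capitals mark the match to the STAT motif TTCNNNGAA.
Csn1s1: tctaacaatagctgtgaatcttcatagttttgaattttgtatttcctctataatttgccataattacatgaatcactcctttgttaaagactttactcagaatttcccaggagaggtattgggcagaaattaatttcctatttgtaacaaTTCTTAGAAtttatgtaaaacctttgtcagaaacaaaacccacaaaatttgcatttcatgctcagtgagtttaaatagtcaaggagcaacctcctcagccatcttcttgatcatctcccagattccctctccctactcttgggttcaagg
Csn2: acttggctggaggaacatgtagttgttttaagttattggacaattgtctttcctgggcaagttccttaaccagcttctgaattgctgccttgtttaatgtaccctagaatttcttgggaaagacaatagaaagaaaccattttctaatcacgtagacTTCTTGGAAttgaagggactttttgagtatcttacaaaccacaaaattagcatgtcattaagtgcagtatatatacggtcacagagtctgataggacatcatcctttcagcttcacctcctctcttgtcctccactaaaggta
Csn1s2a: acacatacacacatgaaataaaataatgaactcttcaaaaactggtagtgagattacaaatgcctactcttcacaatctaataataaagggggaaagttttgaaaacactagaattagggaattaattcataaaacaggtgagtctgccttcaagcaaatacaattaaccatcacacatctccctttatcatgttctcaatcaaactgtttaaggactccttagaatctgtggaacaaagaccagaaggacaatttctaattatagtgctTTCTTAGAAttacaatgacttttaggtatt

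The STAT motif, which reads the same on both strands, began 100 bases before the start in Csn1s1 (TTCTTAGAA) and 93 bases before it in Csn2 (TTCTTGGAA). In Csn1s2a the match, TTCTTAGAA, lay 21 to 29 bases after the start. The motif occurred in 8.29% of the 32817 promoters of the same length in the table. An octamer for POU factors, ATGCAAAT, lay on the opposite strand of Csn1s1, 54 to 47 bases before the start, and was found in 1.74% of promoters. A short glucocorticoid receptor motif, TGTTCT, began 59 bases before the start of Csn1s2a and was found in 19.0%. None of the 3 stretches held the HOX motif TTTATNG (10.9% of promoters), the PBX-HOX motif TGATTTAT (0.978%), the MEIS motif TGACAG (19.2%), the C/EBP motif TTNNGCAA (10.8%) or the TATA box TATAAA (13.6%), each searched on both strands. A match is only a run of letters, and binding was not measured on these arrays.

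Csn2 was the member with a strong signal. Its intensity was 106 and 149 on the empty vector arrays, 964 and 2141 with the full length, 4174 and 4839 with delFG1 and 2270 and 2058 with delFG2, in the order of arrays 1 and 2. The 6 arrays with a form of the fusion all lay above both empty vector arrays, delFG1 lay above all others, and the full-length pair was the most spread. On the log2 scale, with 1 added to each intensity, the group means were 6.98 ± 0.34, 10.49 ± 0.81, 12.13 ± 0.15 and 11.08 ± 0.10 (SD, n = 2 each) for the empty vector, full length, delFG1 and delFG2. The order of the means was therefore delFG1, delFG2, full length and empty vector, and the neighbours delFG2 and full length overlapped. In these bulk samples, fewer cells that express a gene and less of its RNA per cell cannot be told apart.

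Csn1s1, the neighbour of Csn2, had a weak signal and another order. Its intensity was 25.3 and 28.5 with the empty vector, 56.1 and 51.0 with the full length, 33.7 and 34.0 with delFG1 and 30.3 and 29.2 with delFG2. Both full-length arrays stood above the other 6, and the mutants lay between them and the empty vector. The log2 means were 4.80 ± 0.12, 5.77 ± 0.10, 5.12 ± 0.01 and 4.94 ± 0.04 (SD, n = 2 each) in the order empty vector, full length, delFG1 and delFG2. No 2 groups overlapped, which says little with 2 arrays each, and the share of all probe sets without overlap was not computed. The signal was weak outside the full length, at 25.3 to 34.0.

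The remaining members stayed near the bottom of the intensity scale. Csn1s2b was 35.8 and 33.8 in the full length and 28.3 to 30.4 on the other 6 arrays, so its highest group was that of Csn1s1. Csn1s2a was 46.4 on delFG1 array 1 and 30.2 on delFG1 array 2, against 26.1 to 28.2 on the other 6 arrays, so its elevation rested on 1 array. Csn3 was 21.9 to 22.9 on all 8 arrays and its group means differed by at most 0.02 (log2). Across the 8 arrays, Pearson's r between Csn1s1 and Csn1s2b was 0.904 and that between Csn1s1 and Csn2 was 0.36; these describe 8 arrays in 4 groups and share the groups' differences.

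**Figure D1:**
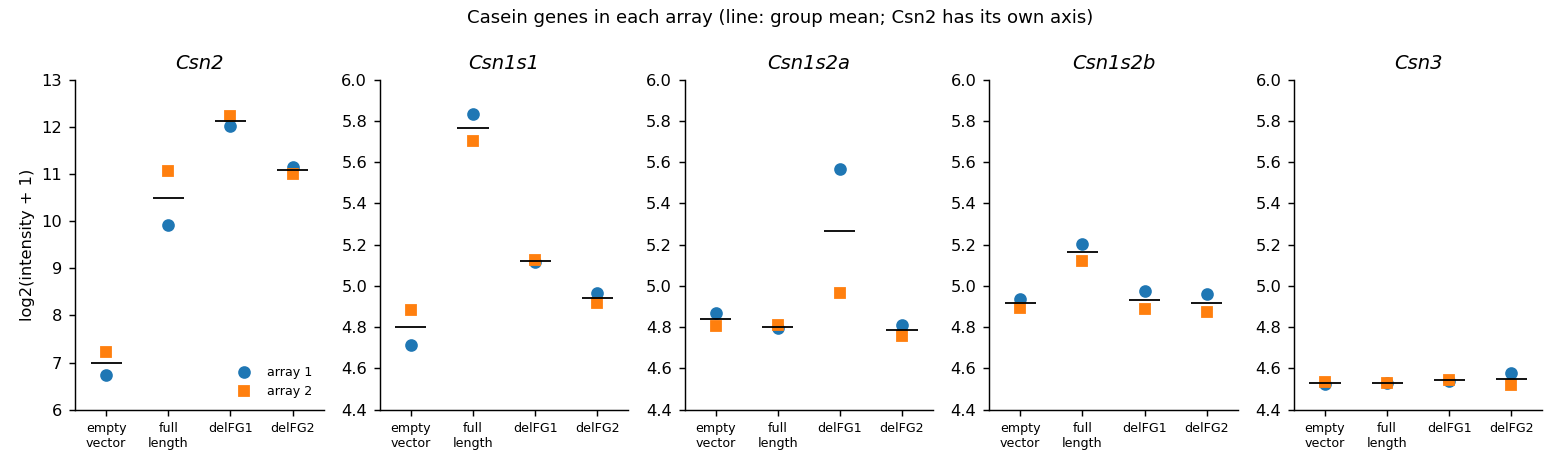
Log2(intensity + 1) of the 5 casein genes on each of the 8 arrays, by group; circles are arrays numbered 1, squares arrays numbered 2 and bars group means. The vertical scale of Csn2 differs from that of the other members. Csn2 was highest in delFG1, Csn1s1 and Csn1s2b were highest in the full length, Csn1s2a stood out on 1 delFG1 array, and Csn3 was flat.

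The first comparison, full length against empty vector, asked what the whole fusion does, and it is the one that chose the genes. Csn2 was 11.4-fold higher in the full length (log2 difference 3.51, standard error 0.32), with 3.17 between the number 1 arrays and 3.84 between the number 2 arrays. Csn1s1 was 1.96-fold higher (0.97, standard error 0.07) on the scale of log2(intensity + 1), which understates the change of weak signals such as this one, and Csn1s2b differed by 0.25, Csn1s2a by -0.03 and Csn3 by 0.00. By limma, with Benjamini-Hochberg adjustment over all 21789 probe sets and a threshold of 0.05, 2 of the 5 members (Csn2 and Csn1s1) were past the threshold, where 0.124% of all probe sets were. With the array number as a block, a term of the fit that takes out what arrays of one number share, Csn1s2b passed as well, which makes 3 members, where 6.61% of all probe sets passed. Nothing is read from these counts, since the comparison supplied the members.

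Both deletion mutants kept Csn2 above the empty vector. Csn2 was 35.5-fold higher in delFG1 (log2 difference 5.15, 95% interval 4.43 to 5.87, limma adjusted p = 0.00202) and 17.1-fold higher in delFG2 (4.09, 3.37 to 4.82, limma adjusted p = 0.0136). It was higher in both numbered pairs of arrays, by 5.28 and 5.02 for delFG1 and by 4.4 and 3.78 for delFG2. These comparisons share the empty vector arrays with the one that chose the gene, so they are not independent of that choice. Csn2 had the largest positive difference of all probe sets in both. In delFG1 against the empty vector it was the 1 member past the threshold, where 0.129% of probe sets passed; with the block Csn1s1 passed too (log2 difference 0.32, limma adjusted p = 0.0312 with the block and 0.184 without it), where 6.12% did. In delFG2 against the empty vector Csn2 was the only probe set of the table past the threshold, a share of 0.00459%, and with the block it was the 1 member called, where 0.505% of probe sets were. The difference of Csn1s1 in delFG2 was 0.14 (limma adjusted p = 1). Without empty vector array 1 the adjusted p of Csn2 was 0.0621 in delFG1, and in delFG2 it was 0.339 without empty vector array 1, 0.0739 without empty vector array 2, 0.225 without delFG2 array 1 and 0.107 without delFG2 array 2. With the block, Csn2 passed in all 8 fits that left out 1 array, in both comparisons.

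Against the full length, the removal of FG1 was accompanied by opposite differences in the neighbours Csn2 and Csn1s1. Csn2 was 3.13-fold higher in delFG1 than in the full length (log2 difference 1.64, 95% interval 0.92 to 2.37), by 2.11 between arrays numbered 1 and 1.18 between arrays numbered 2. Csn1s1 was 1.56-fold lower (-0.65, -0.81 to -0.48), by -0.72 and -0.57. The groups did not overlap for either gene, nor for the flat Csn3 (0.01), so with 2 arrays each this says little. The share of all probe sets without overlap was not computed. Without the block neither passed the threshold, with limma adjusted p = 0.803 for Csn2 and 0.0836 for Csn1s1, and 0 of 5 members were called, where 0.00918% of probe sets were. At an unadjusted p under 0.05 there were 4 members, all except Csn3, where 2.07% of all probe sets were. With the block both passed, with limma adjusted p = 0.0197 and 0.0099, which makes 2 of 5 members, where 0.078% of probe sets passed. Without full-length array 2 the adjusted p of Csn2 was 0.0341 with no block, and without full-length array 1 its difference was 1.07. With the block, Csn2 passed in 6 of the 8 fits that left out 1 array and Csn1s1 in 4 of them.

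With FG2 removed, Csn1s1 was lower than in the full length, while the Csn2 values of the groups overlapped. The Csn2 difference was 0.01 without full-length array 1 and 1.16 without full-length array 2. Csn1s1 was 1.77-fold lower in delFG2 (log2 difference -0.83, 95% interval -0.99 to -0.66, limma adjusted p = 0.0114), by -0.87 and -0.78 in the numbered pairs. It was the 1 member called, where 0.0275% of probe sets were, and again the 1 member called with the block (limma adjusted p = 0.00114), where 0.468% were. Csn2 differed by 0.59 (95% interval -0.13 to 1.31, limma adjusted p = 1), with 1.23 for the number 1 arrays and -0.06 for the number 2 arrays. The interval reaches from slightly lower to clearly higher, so it does not show that delFG2 and the full length had the same Csn2. The call of Csn1s1 was lost without full-length array 1 (adjusted p = 0.127), without delFG2 array 1 (0.127) and without delFG2 array 2 (0.167), and with the block it held in all 8 fits that left out 1 array. Both comparisons with the full length share its 2 arrays with the choosing one.

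The mutants were also set against each other. The difference itself uses no array of the choosing comparison, but its interval and p rest on a spread pooled over all 8 arrays, the widely spread full-length pair included. Csn2 was 2.08-fold lower in delFG2 than in delFG1 (log2 difference -1.06, 95% interval -1.78 to -0.33), by -0.88 and -1.23 in the numbered pairs. This did not pass after adjustment (limma adjusted p = 1 without the block and 0.068 with it). Csn1s1 differed by -0.18 and Csn1s2a by -0.48, neither past the threshold. In this comparison 0 of 5 members and 0% of probe sets were called without the block, and 0 of 5 members and 0.537% of probe sets with it. At an unadjusted p under 0.05 there were 3 members, Csn2, Csn1s2a and Csn1s1, where 3.13% of all probe sets were. Without delFG1 array 2, the other delFG1 array alone put Csn1s2a past the threshold against the full length (0.76, limma adjusted p = 0.0137), the empty vector (0.73, 0.0119) and delFG2 (-0.78, 0.017).

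**Figure D2:**
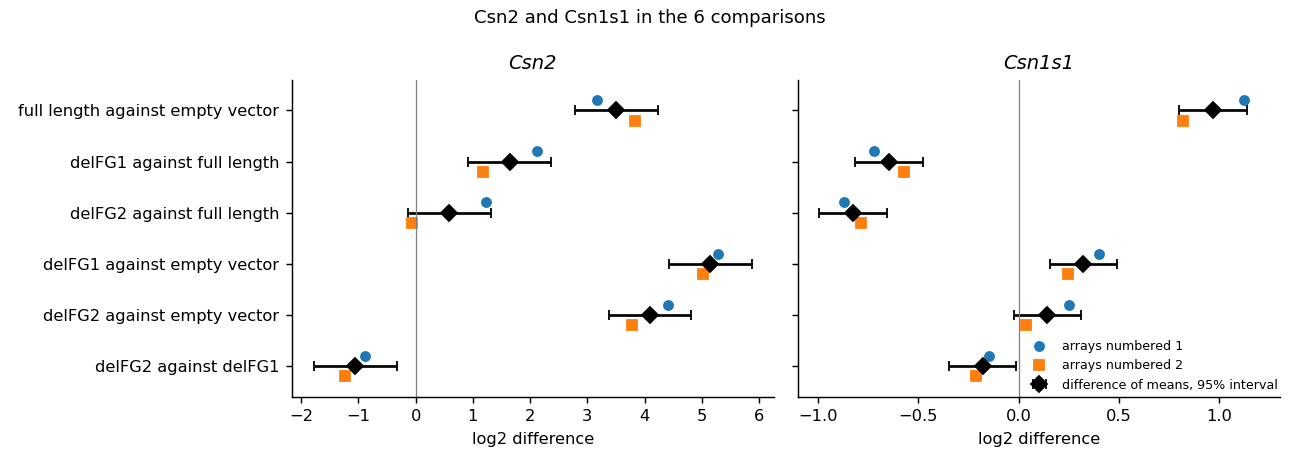
Log2 differences of Csn2 and Csn1s1 in the 6 comparisons between groups; diamonds with bars are differences of means with 95% intervals from the fit without the block, circles and squares the differences between arrays numbered 1 and 2. Csn2 lies above 0 and Csn1s1 below 0 for delFG1 against the full length; for delFG2 the arrays numbered 2 put Csn2 at -0.06.

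How far the neighbours parted was measured directly, a quantity chosen after the values were seen. In delFG1 against the full length, the log2 difference of Csn2 exceeded that of Csn1s1 by 2.29, with 2.83 and 1.75 in the numbered pairs. In delFG2 it did so by 1.41, with 2.10 and 0.73. An exact permutation test (two-sided) gave p = 0.333 for each, the smallest that 2 against 2 arrays allow. With the 4 mutant arrays together against the 2 full-length arrays the gap was 1.85 (exact permutation p = 0.0667, again the smallest possible). The design therefore cannot place this gap past 0.05 by permutation, and both comparisons use the same 2 full-length arrays. The joint test also treats 2 mutants whose Csn2 means differed as 1 group and leaves out the numbered pairs.

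No elevation like that of Csn2 was measured in the genes around the cluster, nearly all of which had a weak signal. In the RefSeq gene order, the sulfotransferase genes Sult1b1, Sult1d1 and Sult1e1 come before Csn1s1, Csn2, Csn1s2a and Csn1s2b, which follow each other with no other protein-coding gene between them. Prr27, Odam and BC037156 then separate Csn1s2b from Csn3, and Cabs1 and Smr3a follow. Csn2 lies on the opposite strand from Csn1s1 and Csn1s2a. Of the 23 protein-coding genes between the caseins and up to 10 on either side, 20 were measured, with Ugt2a1, Ugt2a2 and Gm7714 not analysed here. By limma, 0 of the 20 were called in any of the 6 comparisons, where at most 0.129% of all probe sets were without the block and 6.61% with it. At an unadjusted p under 0.05 there was 1 in delFG1 against full length, where 2.07% of all probe sets were. Between the mutants there were 3, where 3.13% were. For the other comparisons that share was not computed. They had 0 in full length and 0 in delFG1 against the empty vector, 2 in delFG2 against the empty vector and 1 in delFG2 against the full length. The 20 genes differed from the empty vector by -0.14 to 0.07 in the full length, -0.16 to 0.11 in delFG1 and -0.22 to 0.16 in delFG2. The widest range over the 8 arrays was 0.39, for Prr27. All of them except Utp3 (6.79 to 7.01) lay below 5.42 (log2) on every array, the first quartile of the probe set means. Such weak signals can look flat, so these values do not show that the elevation ended at the cluster. Odam, an enamel and epithelial gene between Csn1s2b and Csn3, was 4.50 and 4.54 in the empty vector and 4.57 on both full-length arrays.

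**Figure D3:**
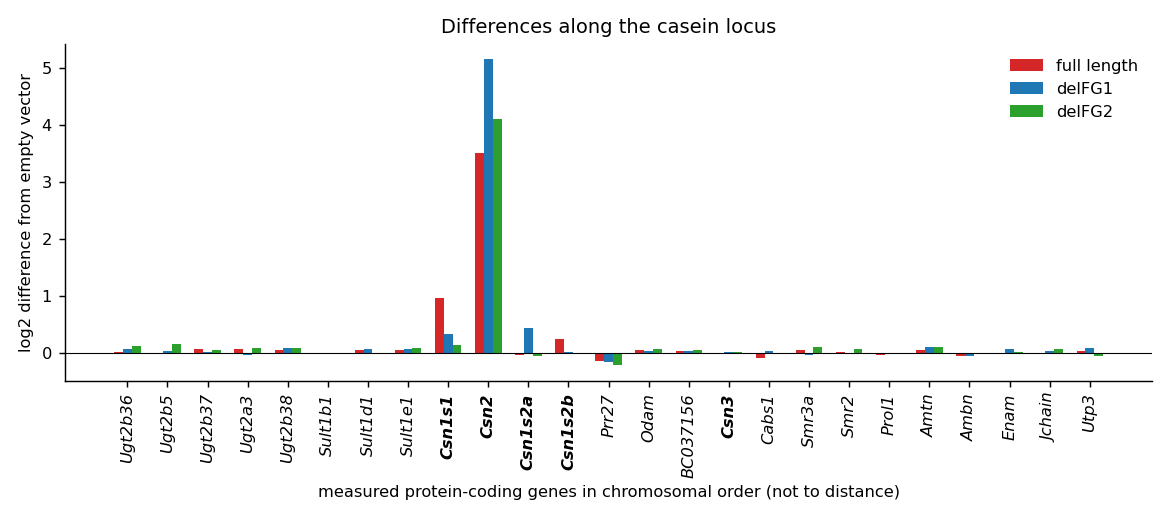
Log2 differences from the empty vector of the measured genes in chromosomal order, for the full length, delFG1 and delFG2; casein genes are named and the horizontal axis is gene order, not distance. Csn2 stands at 3.51, 5.15 and 4.09, Csn1s1 at 0.97, 0.32 and 0.14, and the 20 measured neighbours lie between -0.22 and 0.16.

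Genes whose pattern was most like that of Csn2 were ranked by Pearson's r over the 8 arrays, among 590 probe sets that varied by at least 1 on the log2 scale. Predicted and Rik-named genes, olfactory and vomeronasal receptors, microRNAs and small RNA genes had been left out of these. The 8 nearest were Abcg3 (r = 0.983), an ABC transporter family gene, Mboat2 (0.962), an acyltransferase gene, Ccno (0.958), a cyclin family gene, Myl10 (0.948), a myosin light chain gene, Glp1r (0.938), the receptor for glucagon-like peptide, Gfi1 (0.925), a transcriptional repressor of blood progenitors, Ccr4 (0.924), a chemokine receptor, and Tmem218 (0.920). All 8 had their lowest mean in the empty vector and their highest in delFG1, an order that the ranking itself favours. None of them was called in delFG1 against the full length, without or with the block. Abcg3 had log2 means of 5.55, 7.68, 8.24 and 7.60 in the empty vector, full length, delFG1 and delFG2. Myl10 had means of 7.27, 9.78, 10.20 and 9.53. Their differences between delFG1 and the full length, 0.55 for Abcg3 and 0.42 for Myl10, were smaller than the 1.64 of Csn2. The r values have no test, because the arrays are 8 points in 4 groups.

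The same ranking for Csn1s1, added after its values were seen, returned another set. The nearest were Hoxc6 (r = 0.965), Hoxa9 (0.957), Pbx3 (0.952), Ppm1e (0.949), Hoxa7 (0.939), P2rx3 (0.928), Hoxa5 (0.924) and Prr5l (0.909). Hoxc6, Hoxa9, Hoxa7 and Hoxa5 encode homeodomain transcription factors and Pbx3 a cofactor that binds DNA with HOX proteins. All 8 had their highest mean in the full length and a lower mean in delFG2 than in delFG1. Csn1s1 had the same order, so the ranking itself favours it. Hoxc6 had log2 means of 5.29, 6.35, 5.75 and 5.27 in the empty vector, full length, delFG1 and delFG2, and Pbx3 had 8.70, 10.44, 8.78 and 8.71. Whether the Hoxa9 probe set also reads the fusion transcript was not tested. No gene stood among the nearest 8 of both Csn2 and Csn1s1, whose own r over the arrays was 0.36.

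**Figure D4:**
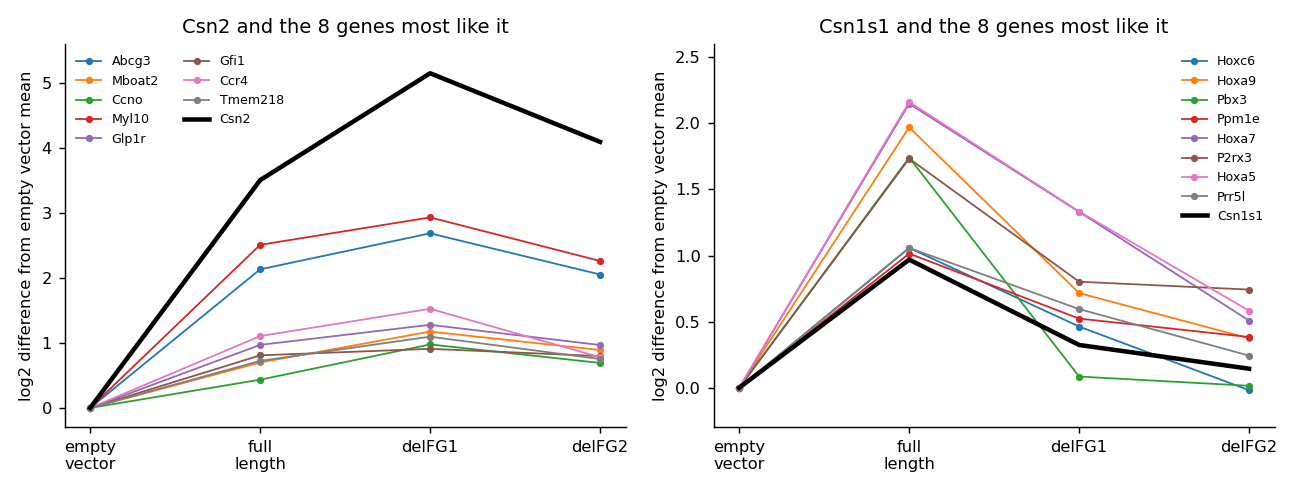
Log2 group means of Csn2 with the 8 genes most like it and of Csn1s1 with the 8 most like it, each shown relative to its own empty vector mean. The Csn2 set is highest in delFG1 in every case, and the Csn1s1 set is highest in the full length and lower in both mutants. Each set was picked for its likeness over these arrays, which favours a shared order.

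Milk genes outside the cluster were set beside Csn2. Of 21 genes of milk proteins and mammary secretion outside the cluster, 19 were measured (Lalba and Pthlh were not analysed here). By limma 0 were called in full length against empty vector without the block, where 0.124% of all probe sets were. There were 5 at an unadjusted p under 0.05, and the share of all probe sets at that cut was not computed. With the block 0 were higher, near the share of 2.18% over all probe sets, and 5 were lower, where 4.43% were. They included Ltf, which encodes lactoferrin, a protein of milk and of neutrophil granules (-0.75), Xdh, an enzyme gene whose product also coats milk fat globules (-0.62), Mfge8, a bridging protein gene for cell clearance (-0.58), and Plin2, a lipid droplet gene (-0.51). The list's median difference was -0.04, beside 0.02 over all probe sets. Wap, the gene of whey acidic protein, was 6.06 to 6.27 on all arrays and differed by 0.08 between full length and empty vector (limma adjusted p = 0.881). The related secretory calcium-binding phosphoprotein genes, which share an origin with the caseins, had 0 calls of 9 measured in all 6 comparisons. At most 0.129% of all probe sets were called without the block and 6.61% with it, so 0 of 9 says little. At an unadjusted p under 0.05 there were also 0, where 2.07% of all probe sets were in delFG1 against full length and 3.13% between the mutants.

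The measured regulators of casein transcription were compared at the RNA level. Of 18 regulators 16 were measured, and 0 were called in any of the 6 comparisons, without or with the block. Of all probe sets, 0% to 0.129% were called without the block and 0.078% to 6.61% with it. With such shares, 0 of 16 says little about the regulators. At an unadjusted p under 0.05 there were 0 to 2. There were 0 in delFG1 against full length and 0 between the mutants, where 2.07% and 3.13% of all probe sets were. That share was not computed for the other comparisons. Stat5a had a log2 mean of 9.90 over the 8 arrays and Stat5b one of 9.17, and the latter was 9.13 to 9.20 on every array. Their differences between full length and empty vector were 0.05 and -0.02. The differences were -0.07 for Nr3c1, the glucocorticoid receptor, -0.17 for Cebpb, which encodes C/EBP-beta, and 0.13 for Elf5, a mammary epithelial factor at 5.21 to 5.46. RNA levels say nothing of the phosphorylation through which STAT5 acts.

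Of 25 receptors, kinases and phosphatases of prolactin and cytokine signalling around STAT5, not all of which work with JAK2, 21 were measured. The others, Prlr among them, were not analysed here. Full length against empty vector gave 0 limma calls without the block, where 0.124% of all probe sets were called. There were 6 at an unadjusted p under 0.05, a cut at which the share of all probe sets was not computed. With the block 1 was higher and 3 lower, beside those same shares of 2.18% and 4.43% over all probe sets. The 1 higher gene was Il2ra, the interleukin-2 receptor alpha chain, at 6.42 and 7.04 with the empty vector, 9.08 and 8.23 with the full length, 7.80 and 7.72 with delFG1 and 8.0 and 7.42 with delFG2 (log2). It differed by 1.93 between full length and empty vector (limma adjusted p = 0.0785 without the block and 0.00145 with it) and was highest in the full length. The 3 lower genes were Il7r, the interleukin-7 receptor (-1.01), Ptpn1, a phosphatase gene (-0.33), and Csf2rb2, a beta chain of the interleukin-3 receptor (-0.32). Jak2 itself differed by -0.14 and was 9.38 to 9.87 on all arrays. The list's median was -0.14, beside 0.02 over all probe sets. In delFG1 against empty vector 0 genes were called without the block, where 0.129% of all probe sets were. There were 6 at an unadjusted p under 0.05, again with no share computed. With the block 2 genes were higher and 2 lower, where 1.94% and 4.18% of all probe sets were. The higher ones were Il2ra (1.03) and Ptpn2 (0.73, limma adjusted p = 0.00176 with the block and 0.106 without it), a phosphatase gene at 9.88 and 9.71 in the empty vector, 10.07 and 10.26 in the full length, 10.64 and 10.41 in delFG1 and 10.28 and 10.02 in delFG2. Like Csn2, Ptpn2 had its lowest mean in the empty vector and its highest in delFG1.

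Among STAT5 target genes of other tissues, Il2ra was the only one called higher in the full length. All 15 were measured, with 0 limma calls without the block in full length against empty vector, where 0.124% of all probe sets were called. There were 5 at an unadjusted p under 0.05, a cut at which the share of all probe sets was not computed. With the block, where 2.18% of all probe sets were higher and 4.43% lower, 1 was higher, Il2ra again, and 3 were lower: Ccnd1, a cyclin gene (-0.55), and the survival genes Bcl2l1 (-0.42) and Mcl1 (-0.30). Cish and Socs2, feedback inhibitors induced by STAT5, differed by 0.12 and 0.26 and were not called. In delFG1 against full length, 0 members of the milk, regulator, receptor and kinase, and target lists were called. The share of all probe sets was 0.00918% without the block and 0.078% with it. In delFG2 against full length 0 were called as well, where 0.0275% and 0.468% of all probe sets were. At an unadjusted p under 0.05 there were 0, 0, 2 and 1 in delFG1, where 2.07% of all probe sets were. In delFG2 there were 1, 0, 1 and 3, and the share at that cut was not computed. Stat5a, Stat5b, Il2ra and Bcl6 each stand in more than 1 list.

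**Figure D5:**
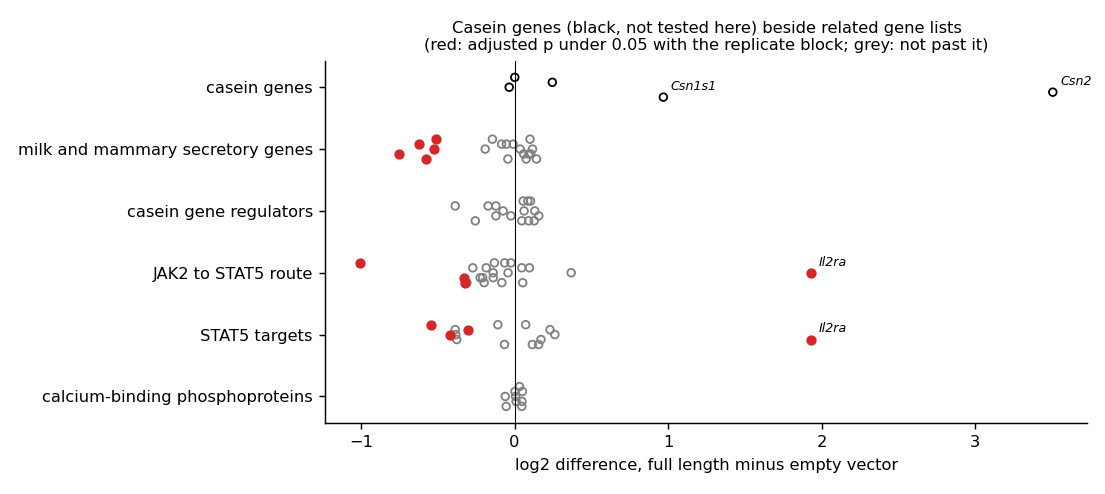
Log2 differences between full length and empty vector for the casein genes and 5 gene lists, 1 point a gene; red points passed the limma threshold with the replicate block, and the casein genes, chosen in this comparison, are drawn in black without a call. Csn2 at 3.51 and Il2ra at 1.93 stand apart, and the red points among the milk genes lie below 0. The row labelled JAK2 to STAT5 route also holds genes that do not work with JAK2.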

How the data were processed

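The authors deposited a table of linear intensity values for 8 Affymetrix arrays; the background correction, normalization, summary method and genome build are not stated in samples' labels or the table. Per the labels' protocols, total RNA was extracted on columns and labelled as fragmented single-stranded DNA. The table holds 28853 probe sets, of which 21789 had 1 gene symbol and were used; 1621 had several and 5443 none. Values were taken as log2(intensity + 1). limma 3.58.1 (R 4.3.3; lmFit and eBayes with an intensity trend) fitted 4 group means over all 8 arrays (4 residual degrees of freedom), with Benjamini-Hochberg adjustment over the whole table and a threshold of 0.05. Arrays of a group correlated at 0.995 to 0.996. Several pairs of arrays from different groups were closer than this, up to 0.999 for full length and delFG1 arrays numbered 2. The number of arrays limits the precision.

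Arrays with the same number in the labels deviated from their group means together (r = 0.401 to 0.640 over the 6 pairs of groups). The numbers were therefore taken to pair the arrays, a pairing that comes from the data and not from a statement in the labels, and a fit with the number as a block stands beside the first.

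The members and gene lists were chosen with earlier results of these data known. Named were the 5 caseins, genes next to or between them, the 8 genes most like Csn2, up to 4 called genes a list, and a few regulators and milk genes in any case. Promoters came from RefSeq (GRCm38.p6) for 3 of 5 members. Casein protein sequences were not used here. Alternatives were other pseudocounts, centring, quantile normalization, a filter on low probe sets, no intensity trend, the block and leaving out each array.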

Additional observations from a re-analysis of the deposited data

How the results depend on the processing

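With the probe sets of lowest mean left out (log2 below 5.42), 1 casein gene was called in full length against empty vector, since that step kept Csn2 alone, and 0 in delFG2 against full length. With the replicate block, 2 were called in delFG1 against full length and against empty vector. With no intensity trend, 0 were called in delFG2 against full length and against empty vector. The Csn2 difference of 1.64 in delFG1 against full length passed with the replicate block (limma adjusted p = 0.0197), and that of 4.09 in delFG2 against empty vector did not pass without the trend (0.164); no other alternative that kept all arrays changed a call of Csn2. Leaving out 1 array in turn gave 1 to 2 casein genes called in full length against empty vector, 0 to 1 in each mutant against full length, 0 to 2 in delFG1 and 0 to 1 in delFG2 against empty vector, and 0 to 1 between the mutants; with the replicate block as well, up to 3 were called. The Csn2 difference, without the block, ranged from 1.07 to 2.22 in delFG1 and from 0.01 to 1.16 in delFG2 against full length, 4.91 to 5.39 in delFG1 and 3.85 to 4.33 in delFG2 against empty vector. With the replicate block it was called in delFG1 against full length at 2.13 without full-length array 2 and at 1.79 without delFG1 array 2. Between the mutants it was called at -1.06, with the replicate block, when either empty vector array or either full-length array was left out.

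The differences that changed sign were near 0 and none was called. Quantile normalization gave -8e-04 for Csn1s2b and -0.0032 for Csn3 in delFG1 and -0.0112 for Csn1s2b in delFG2 against empty vector. Centring on the array median gave -0.0148 for Csn1s2b in delFG2 against empty vector and -0.0112 for Csn3 between the mutants. Leaving out 1 array gave ranges of -0.0449 to 0.007 for Csn1s2a and -0.0113 to 0.0499 for Csn3 in delFG2 against full length, -0.0297 to 0.057 for Csn1s2b in delFG1 against empty vector, -0.0449 to 0.0469 for Csn1s2b and -0.0097 to 0.0515 for Csn3 in delFG2 against empty vector, and -0.0586 to 0.0332 for Csn1s2b and -0.0238 to 0.0373 for Csn3 between the mutants. With the replicate block and 1 array left out, the turned values were 0.1056 and 0.064 for Csn1s2a and -0.0131 for Csn3 in delFG2 against full length, and -0.0072 for Csn1s2b in delFG1 against empty vector. They were -0.0199 and -0.0097 for Csn1s2b, 0.0222 and 0.0293 for Csn1s2a and -0.0115 for Csn3 in delFG2 against empty vector, and -0.0026 and -0.0257 for Csn3 between the mutants. In full length against empty vector, Csn3 turned to -0.0128 with centring and -0.0058 with quantile normalization and ranged from -0.0022 to 0.0054 with 1 array left out; with the block as well, Csn3 ranged from -0.0117 to 0.0149 and Csn1s2a from -0.1592 to 0.0898. The causes were not tested.

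With Spearman's rho in place of Pearson's r, 4 of the 8 genes named as most like Csn2 and 2 of the 8 for Csn1s1 held a place among the nearest 8, tied genes sharing the best place. A pseudocount of 16 lowered the Csn1s1 difference between full length and empty vector to 0.70. The signals of Csn1s2a, Csn1s2b, Csn3 and, outside the full length, Csn1s1 were weak, and no detection call was at hand to set them against background.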
